A study of Homo sapiens with 6 samples.

Results

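The integrated stress response and the unfolded protein response were followed through 41 genes after siRNA knockdown of NONO in HCT116, a cell line from a human colorectal carcinoma. A row of the gene files was taken as a member where its Ensembl ID mapped to a listed gene symbol, which gave 41 of the 62492 genes listed, and the list was drawn up with earlier results of these data known. The members are 5 sensors and regulators, 22 targets of the transcription factor ATF4, 10 chaperones of the endoplasmic reticulum (ER) and 4 factors of ER-associated degradation. NONO is an RNA-binding protein that resides in nuclear paraspeckles. Polyadenylated RNA was sequenced from 3 libraries per group, and each of Sets 1, 2 and 3 holds 1 siControl and 1 siNONO library, which the series describes as biological replicates. The siControl cells are labelled as WT and the siNONO cells as NONO knockdown. Both groups received siRNA at 20 nM with Lipofectamine RNAiMAX and grew in DMEM with fetal bovine serum. NONO was targeted with 1 siRNA duplex, so the loss of NONO and other effects of that duplex cannot be told apart.

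Both responses adjust a cell to conditions under which proteins cannot be made or folded properly. In the integrated stress response, kinases that sense misfolded protein, amino acid shortage, heme shortage or double-stranded RNA phosphorylate the translation factor eIF2, which lowers bulk translation but favours translation of ATF4, and ATF4 then raises genes for amino acid supply, tRNA charging and feedback control. In the unfolded protein response, the ER sensors PERK, IRE1 and ATF6 answer to misfolded protein in the ER lumen. PERK feeds into eIF2, IRE1 splices the XBP1 mRNA and ATF6 is cut in the Golgi, and the latter pair raise ER chaperones and the degradation machinery. The files hold values per gene, so spliced and unspliced XBP1 mRNA are not separated, and phosphorylation and protein levels were not analysed here.

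Estimated counts per library summed to between 21765393 and 32659002. NONO itself (ENSG00000147140; GRCh37 chromosome X, 70474664 to 70521372, plus strand) was at 496, 495 and 516 CPM (counts per library size, with edgeR's TMM scaling) in siControl Sets 1, 2 and 3, and at 89.5, 95.5 and 100.4 CPM in siNONO. It fell in every Set (log2 fold change -2.40 ± 0.0337, SE, edgeR adjusted p = 2.47e-13). Of the markers of colorectal epithelium, EPCAM was at 224 to 293 TPM (RSEM's abundance per length), KRT8, KRT18 and KRT19 were higher still, CDH1 was at 33.1 to 43.2 TPM and CDX2 at 7.46 to 8.71 TPM, whereas VIL1 and LGALS4 stayed at or below 0.35 TPM in all libraries. Markers of immune and endothelial cells stayed at or below 0.43 TPM, as did COL3A1 and DCN, although the fibroblast marker COL1A1 was at 16.2 to 19.0 TPM. A gene is called here where edgeR's quasi-likelihood test, with the Set as a block, gave a Benjamini-Hochberg adjusted p of at most 0.05 over the 17000 genes with enough counts.

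After NONO knockdown, 9 of the 10 ER chaperones were called higher and none lower. Of the 21 ATF4 targets tested, 10 were called higher and 4 lower. Over all genes tested, 23.2% were called higher and 23.4% lower. The share of ATF4 targets called higher, 47.6%, was thus above that of all genes, while the share called lower, 19%, was near it. PDIA4, CRELD2, HYOU1, DNAJB9, SDF2L1, DNAJC3, HSP90B1, HSPA5 and CALR were all higher, by 1.17-fold to 1.66-fold, and XBP1 rose 1.43-fold. Among the ATF4 targets, the amino acid enzymes ASNS, PHGDH and PSAT1, the cystine transporter SLC7A11, WARS1 and ATF5 rose by 1.34-fold to 1.88-fold. In contrast, DDIT4 fell to 0.603 of its siControl level, CEBPB, CEBPG and SLC7A5 fell to between 0.824 and 0.844, and DDIT3, the gene of the stress marker CHOP, was not called. ATF4 mRNA rose 1.20-fold.

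Of the 41 members, 40 had enough counts to be tested and 29 were called, 24 higher and 5 lower, which is 60% and 12.5% of those tested. Over all genes tested, 46.6% were called, 23.2% higher and 23.4% lower. With edgeR on counts, 3939 genes were called higher and 3985 lower, against 1643 and 3614 with limma on log2(TPM + 1), which differs in both scale and test and called 23 members. The median log2 fold change of the 40 members was 0.21, beside -0.00479 over all genes tested. All 3 siNONO libraries lay above all 3 siControl libraries for 23 members and below them for 4, and the groups overlapped for 13, where the shares over all genes tested were 23.9% above and 24% below. With bulk RNA, a change in all cells and a change in some of the cells cannot be told apart.

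**Figure D1:**
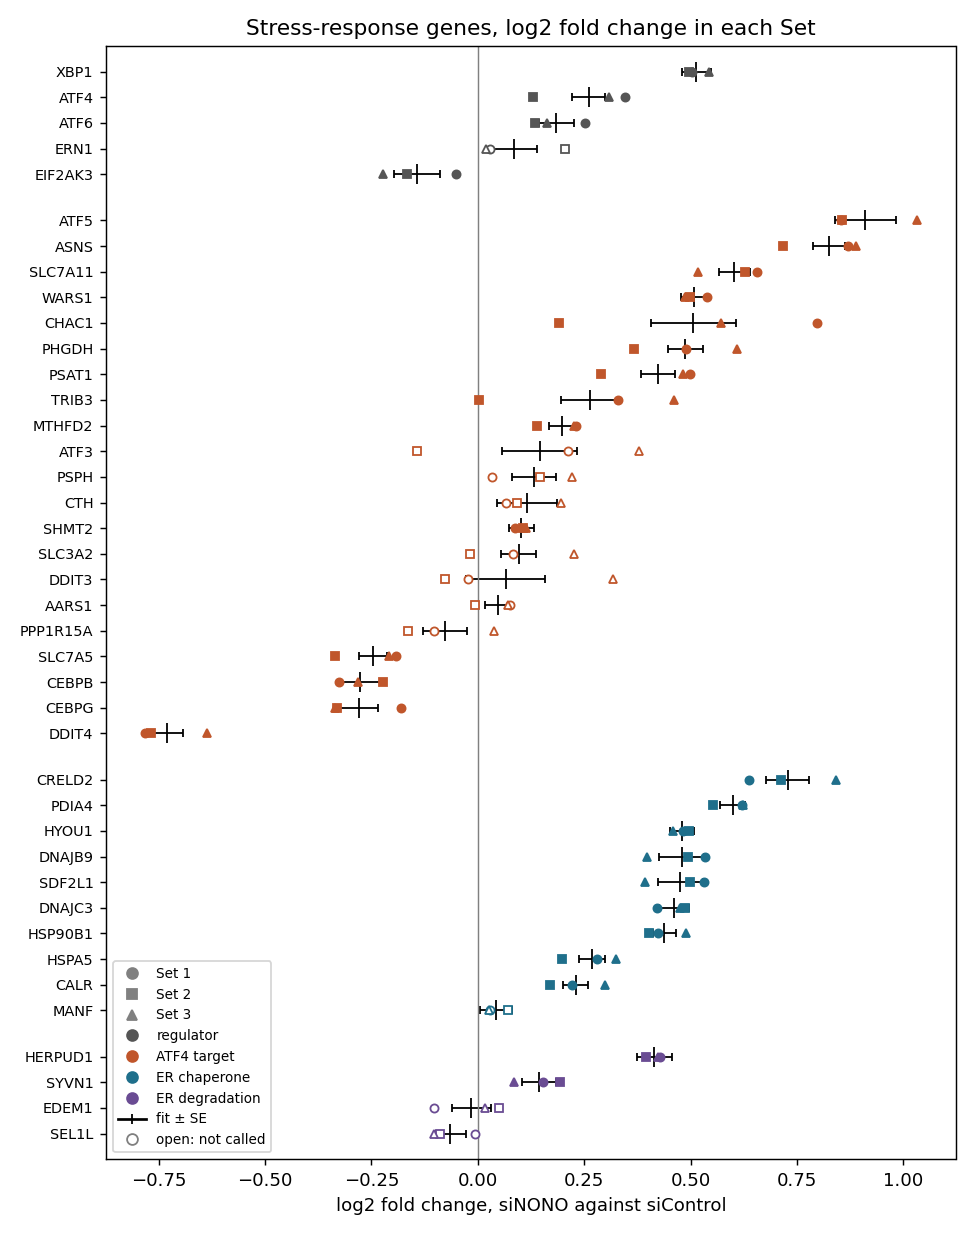
Log2 fold change of each of the 40 tested genes, siNONO against siControl (horizontal axis), by Set (circle, square, triangle) with the fitted value ± SE, and open symbols for genes not called. The 10 ER chaperones lie to the right of 0 in every Set (MANF turned to -0.016 on log2(TPM + 1)), whereas the ATF4 targets run from DDIT4 at -0.73 to ATF5 at 0.91.

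The sensors and regulators were examined first. ATF4 (GRCh37 chromosome 22, 39915700 to 39918688, plus strand), the transcription factor through which eIF2 phosphorylation acts on genes, was at 355, 411 and 388 CPM in siControl Sets 1, 2 and 3 and at 451, 450.1 and 480.2 CPM in siNONO. The groups did not overlap, and ATF4 rose (log2 fold change 0.26 ± 0.0387, SE, edgeR adjusted p = 1.24e-04). By Set it changed by 0.35, 0.13 and 0.31 on the log2 scale, smallest in Set 2, where the siControl library held the most ATF4 of its group. XBP1 (GRCh37 chromosome 22, 29190543 to 29196585, minus strand), the transcription factor activated by IRE1, was at 75.7, 72.9 and 74.2 CPM in siControl and 107, 103 and 108 CPM in siNONO. XBP1 rose by nearly the same amount in all Sets (log2 fold change 0.51 ± 0.0348, SE, edgeR adjusted p = 1.33e-07). ATF6, the ER-anchored factor released by proteolysis, was at 57.9, 61.3 and 59.0 CPM against 69.0, 67.3 and 66.0 CPM and was called higher (log2 fold change 0.18 ± 0.0407, SE, edgeR adjusted p = 0.00244), a call that was lost when log2(TPM + 1) was tested with limma (0.08, adjusted p = 0.423). ERN1, which encodes IRE1, was at 31.4, 30.7 and 30.8 CPM against 32.1, 35.3 and 31.2 CPM, its groups overlapped and it was not called (log2 fold change 0.08 ± 0.0546, SE, edgeR adjusted p = 0.230). EIF2AK3, which encodes PERK, was at 32.9, 33.3 and 32.1 CPM against 31.7, 29.6 and 27.5 CPM, with all siNONO libraries below all siControl libraries. Its small decrease was called (log2 fold change -0.14 ± 0.0533, SE, edgeR adjusted p = 0.0436), but the call was lost without either library of Set 2 or of Set 3 (adjusted p from 0.144 to 0.221), without the Set as a block (0.123) and with DESeq2 (0.261).

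The kinases that phosphorylate eIF2 did not move together. EIF2AK2, which encodes PKR, the kinase that binds double-stranded RNA and is itself an interferon-induced gene, was at 145, 146 and 130.0 CPM in siControl Sets 1, 2 and 3 and 442, 411 and 392 CPM in siNONO. All siNONO libraries were far above all siControl libraries, and PKR mRNA rose 2.96-fold (log2 fold change 1.56 ± 0.0330, SE, edgeR adjusted p = 6.65e-12). EIF2AK1, the heme-regulated kinase HRI, was at 177, 182 and 184 CPM against 152, 159 and 151 CPM and fell (log2 fold change -0.23 ± 0.0323, SE, edgeR adjusted p = 6.80e-05). EIF2AK4, which encodes the amino acid sensor GCN2 and was chosen after its values were seen, was at 128, 128 and 128 CPM against 125, 123 and 126 CPM and was not called (log2 fold change -0.04 ± 0.0321, SE, edgeR adjusted p = 0.341). In all, 4 of the 10 wider eIF2 genes were called higher and 3 lower, beside 23.2% and 23.4% over all genes tested. PPP1R15B, the constitutive eIF2 phosphatase subunit, had a log2 fold change of -0.31 (edgeR adjusted p = 3.01e-06), and EIF2B2, a subunit of the eIF2 exchange factor, one of 0.29 (edgeR adjusted p = 3.40e-04).

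**Figure D2:**
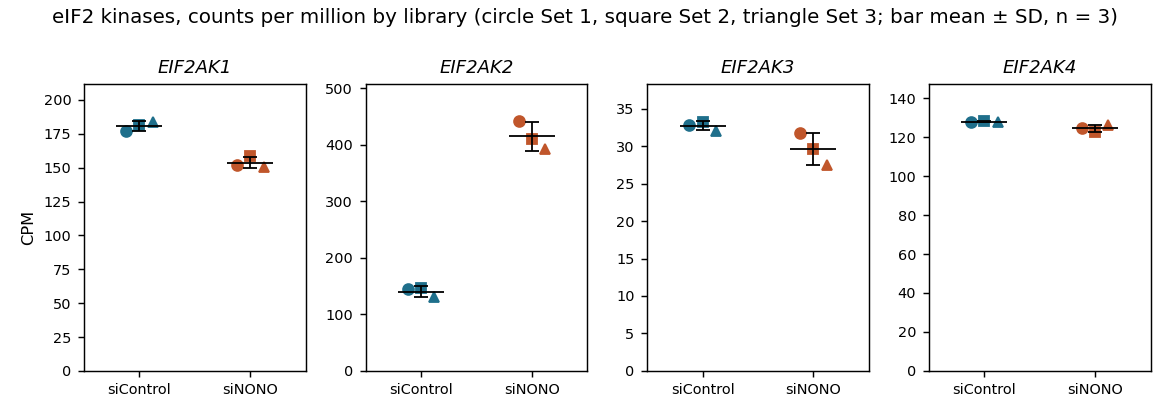
CPM of the 4 eIF2 kinase genes in each library (vertical axis from 0), siControl in blue and siNONO in orange, with the mean ± SD of 3 libraries. EIF2AK2 lies between 392 and 442 CPM in siNONO against 130.0 to 146 CPM in siControl, while EIF2AK1 and EIF2AK3 are lower in siNONO and the EIF2AK4 libraries stay between 123 and 128 CPM.

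Of the 22 ATF4 targets, 21 were tested, 10 were called higher, 4 lower and 7 not called. This is 47.6% higher and 19% lower of those tested, beside 23.2% and 23.4% over all genes tested. The median log2 fold change of the ATF4 targets was 0.13, with quartiles at 0.05 and 0.49. On log2(TPM + 1), which has no TMM scaling and also takes up the estimated transcript length, that median was 0.01, where the median of all genes was -0.07. ATF6, whose estimated length was the same in all libraries, also had a lower value there, 0.08 against 0.18. The parts of scaling, length and test in these lower values were not tested. The remaining target, VLDLR, a lipoprotein receptor, had estimated counts of 11, 10 and 0 in siControl and 2, 4 and 2 in siNONO, too few for the test.

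The ATF4 targets that are transcription factors went in both directions. ATF5 (GRCh37 chromosome 19, 50431959 to 50437192, plus strand), which drives mitochondrial stress genes, was at 9.29, 10.3 and 10.4 CPM in siControl Sets 1, 2 and 3 and 16.8, 18.6 and 21.2 CPM in siNONO. It had the largest increase of the 40 members tested (log2 fold change 0.91 ± 0.0712, SE, edgeR adjusted p = 4.87e-07), with no overlap between groups. CEBPB, a partner of ATF4 on DNA, was at 42.1, 41.3 and 44.9 CPM against 33.6, 35.4 and 36.9 CPM and fell in every Set (log2 fold change -0.28 ± 0.0473, SE, edgeR adjusted p = 3.67e-04). Its relative CEBPG was at 61.5, 64.6 and 62.5 CPM against 54.3, 51.3 and 49.6 CPM and fell as well (log2 fold change -0.28 ± 0.0447, SE, edgeR adjusted p = 2.24e-04), and the groups of both genes were apart. DDIT3, which encodes the pro-apoptotic factor CHOP, was at 9.20, 11.8 and 9.30 CPM in siControl and 9.05, 11.1 and 11.6 CPM in siNONO. The groups of DDIT3 overlapped widely, with log2 fold changes of -0.02, -0.08 and 0.32 in Sets 1, 2 and 3. DDIT3 was not called (log2 fold change 0.07 ± 0.0921, SE, edgeR adjusted p = 0.599), and its value was -0.047 and -0.050 without the siControl or siNONO library of Set 3. ATF3, an immediate stress-induced factor, was at 14.1, 17.7 and 15.4 CPM against 16.3, 16.0 and 20.0 CPM and was not called (log2 fold change 0.15 ± 0.0880, SE, edgeR adjusted p = 0.202). Without the siControl or the siNONO library of Set 2, ATF3 was called higher, at 0.31 (adjusted p = 0.0105) and 0.30 (adjusted p = 0.0128), whereas without that of Set 3 its value was 0.038 and 0.035 and it was not called (adjusted p = 0.768 and 0.780).

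Feedback and cell-fate factors were as mixed. DDIT4 (GRCh37 chromosome 10, 74033678 to 74035794, plus strand), the stress-induced inhibitor of mTORC1 known as REDD1, was at 159, 166 and 156 CPM in siControl Sets 1, 2 and 3 and 92.5, 97.4 and 100.1 CPM in siNONO. The 3 siNONO libraries were far below the siControl libraries, and DDIT4 had the largest decrease of the members tested (log2 fold change -0.73 ± 0.0370, SE, edgeR adjusted p = 1.17e-08). CHAC1, a glutathione-degrading enzyme and one of the most responsive ATF4 targets, was at 8.83, 14.9 and 11.5 CPM against 15.3, 17.0 and 17.1 CPM and rose (log2 fold change 0.51 ± 0.0991, SE, edgeR adjusted p = 0.00103). By Set, the log2 fold change of CHAC1 was 0.80, 0.19 and 0.57. TRIB3, a pseudokinase that restrains ATF4 activity, was at 42.3, 51.4 and 47.3 CPM against 53.2, 51.6 and 65.2 CPM. TRIB3 was called higher (log2 fold change 0.26 ± 0.0688, SE, edgeR adjusted p = 0.00711), although its log2 fold change in Set 2 was 0.00 and the value fell to 0.17 and the call was lost without either library of Set 3 (adjusted p = 0.0666 and 0.0508), while without either library of Set 2 it was 0.41 and 0.40. The call of TRIB3 was also lost with limma on log2(TPM + 1) (0.16, adjusted p = 0.201). PPP1R15A, the inducible eIF2 phosphatase subunit GADD34, was at 39.2, 42.5 and 41.5 CPM against 36.5, 38.0 and 42.6 CPM and was not called (log2 fold change -0.08 ± 0.0512, SE, edgeR adjusted p = 0.245). Without the siNONO library of Set 3, PPP1R15A was called lower, at -0.13 (adjusted p = 0.0470). Without the siControl library of that Set its value was also -0.13 but was not called (adjusted p = 0.0572).

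The enzymes of amino acid and one-carbon metabolism were called higher or not called. ASNS (GRCh37 chromosome 7, 97480989 to 97501854, minus strand), asparagine synthetase, was at 111, 131 and 116 CPM in siControl Sets 1, 2 and 3 and 202, 215 and 214 CPM in siNONO, an increase in every Set (log2 fold change 0.82 ± 0.0378, SE, edgeR adjusted p = 4.48e-09). The serine pathway enzymes PHGDH, PSAT1 and PSPH act in that order from 3-phosphoglycerate to serine. PHGDH was at 122, 137 and 129.6 CPM against 172, 177 and 198 CPM and rose (log2 fold change 0.49 ± 0.0417, SE, edgeR adjusted p = 1.13e-06). PSAT1 was at 176, 197 and 169.6 CPM against 249, 241 and 237 CPM and rose too (log2 fold change 0.42 ± 0.0402, SE, edgeR adjusted p = 2.79e-06). PSPH, the final step, was at 34.5, 32.9 and 35.4 CPM against 35.3, 36.4 and 41.3 CPM, its groups overlapped and it was just short of a call (log2 fold change 0.13 ± 0.0521, SE, edgeR adjusted p = 0.0551). PSPH was called higher without either library of Set 1 (0.19, adjusted p = 0.0402 and 0.0463), and also with other filters or the edgeR 4 form of the test (0.0311 to 0.0488). In the mitochondrial one-carbon pathway, MTHFD2 was at 286, 306 and 275 CPM against 336, 337 and 322 CPM and was called higher (log2 fold change 0.20 ± 0.0308, SE, edgeR adjusted p = 1.81e-04), a call lost on log2(TPM + 1) (0.08, adjusted p = 0.147). SHMT2, the mitochondrial serine hydroxymethyltransferase, was at 188, 199 and 211 CPM against 200.2, 214 and 228 CPM, and its groups overlapped although each siNONO library was above the siControl library of its own Set. Its call (log2 fold change 0.10 ± 0.0296, SE, edgeR adjusted p = 0.0127) was lost without the Set as a block (adjusted p = 0.204) and without either library of Set 1 or Set 2 (0.0594 to 0.0917), and its direction turned on log2(TPM + 1), at -0.0037. CTH, the enzyme that makes cysteine from cystathionine, was at 13.7, 12.3 and 12.6 CPM against 14.3, 13.2 and 14.4 CPM and was not called (log2 fold change 0.12 ± 0.0699, SE, edgeR adjusted p = 0.202).

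The amino acid transporters SLC7A5 and SLC7A11 pair with the same heavy chain, SLC3A2, yet moved in opposite directions. SLC7A11, the cystine importer, was at 107, 102 and 93.6 CPM in siControl Sets 1, 2 and 3 and 169, 157 and 134 CPM in siNONO and rose (log2 fold change 0.60 ± 0.0361, SE, edgeR adjusted p = 5.08e-08). SLC7A5, the importer of large neutral amino acids, was at 564, 639 and 670.0 CPM against 494, 506 and 579.6 CPM. SLC7A5 was lower in every Set and fell (log2 fold change -0.25 ± 0.0326, SE, edgeR adjusted p = 5.08e-05), though siNONO Set 3 lay above siControl Set 1. SLC3A2 was at 185, 200.3 and 201 CPM against 195, 198 and 235 CPM and was not called (log2 fold change 0.10 ± 0.0412, SE, edgeR adjusted p = 0.0758), but without the siControl or siNONO library of Set 2 it was called higher, at 0.17 and 0.16 (adjusted p = 0.0112 and 0.0169), and without that of Set 3 its value was 0.036 and 0.033 and it was not called (adjusted p = 0.412 and 0.422).

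Of the tRNA synthetases among the members, WARS1, the tryptophan enzyme, which interferon also induces, was at 103, 109.6 and 109 CPM against 149.7, 155 and 153 CPM and rose (log2 fold change 0.51 ± 0.0323, SE, edgeR adjusted p = 7.72e-08). AARS1, the alanine enzyme, was at 259, 292 and 277 CPM against 273, 290.4 and 291 CPM and was not called (log2 fold change 0.05 ± 0.0306, SE, edgeR adjusted p = 0.239). A further 10 synthetases known as ATF4 targets were read as a wider list, and 8 were called higher and 1 lower (23.2% and 23.4% over all genes tested), with a median log2 fold change of 0.31. Its 3 highest genes were YARS1 at 0.53 (edgeR adjusted p = 1.52e-07), IARS1 at 0.42 (edgeR adjusted p = 2.03e-07) and CARS1 at 0.36 (edgeR adjusted p = 4.02e-06). LARS1, the leucine enzyme, fell by 0.32 on the log2 scale (edgeR adjusted p = 2.35e-06). Of 16 other ATF4 targets, 15 were tested, 8 were called higher and 2 lower (23.2% and 23.4% over all genes tested), with a median of 0.19. The 2 called lower were ALDH18A1 at -0.24 (edgeR adjusted p = 4.64e-05) and XPOT at -0.09 (edgeR adjusted p = 0.0310). GDF15, a secreted stress cytokine, was at 98.4, 92.3 and 102 CPM against 148, 144 and 168 CPM and rose (log2 fold change 0.65 ± 0.0357, SE, edgeR adjusted p = 2.32e-08). NUPR1, a stress-induced chromatin protein, was called higher from few reads, with counts of 1, 7 and 4 in siControl and 36, 22 and 28 in siNONO (edgeR adjusted p = 8.25e-04).

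**Figure D3:**
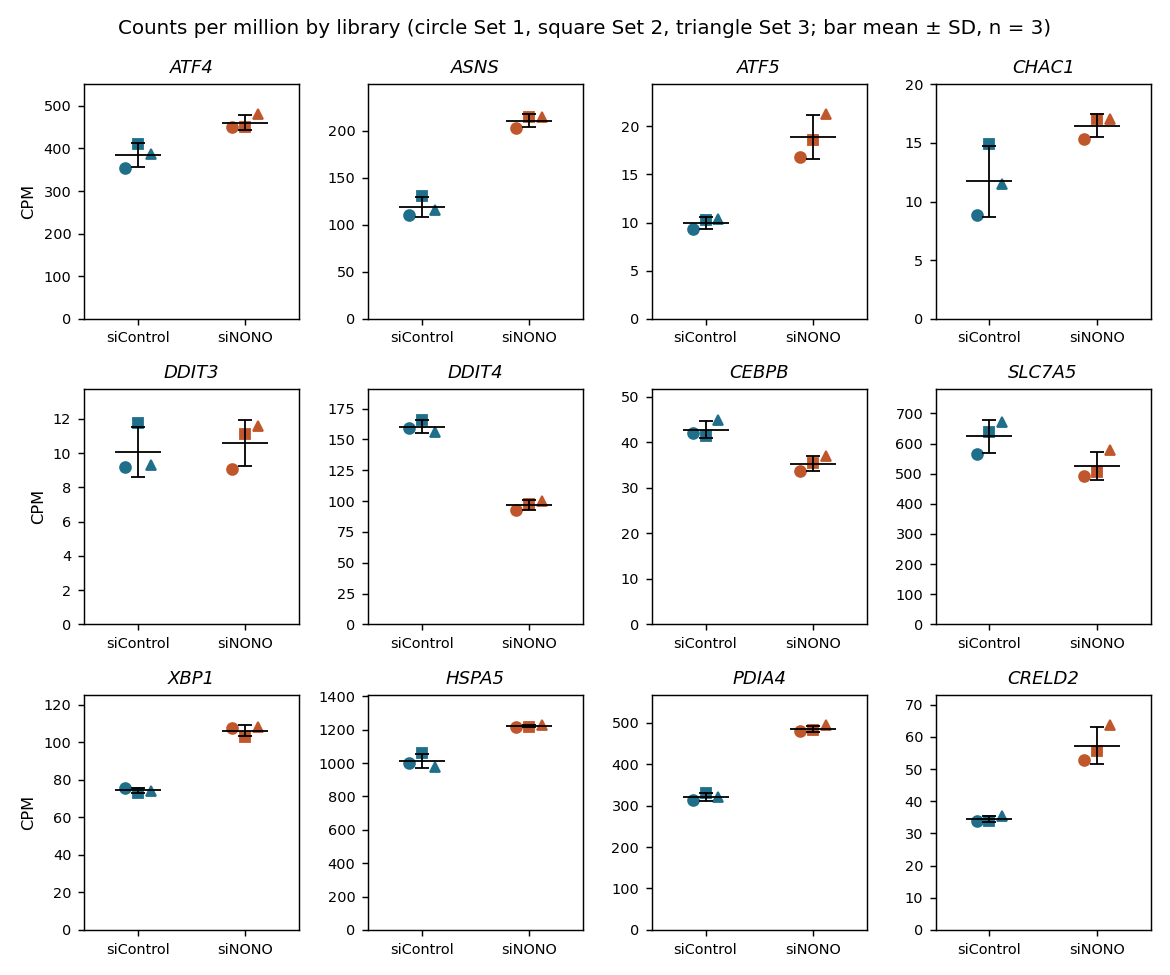
CPM in each library (vertical axes from 0) of 12 members, siControl in blue and siNONO in orange, Sets by symbol, with the mean ± SD of 3 libraries. ASNS, ATF5, XBP1, HSPA5, PDIA4 and CRELD2 are higher in all siNONO libraries, DDIT4 and CEBPB are lower in all, and the groups of DDIT3 and SLC7A5 overlap.

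Sequences upstream of ATF4 targets show where the letters of the C/EBP-ATF response element, the composite site that ATF4 and its C/EBP partners bind, lie in genes that rose and in genes that were not called. The element was searched as TGATGNAA on both strands of the RefSeq promoter windows (GRCh38.p14, 250 bases before to 50 after each start site), which were held for 38 of the 41 members. The letters occurred in 7 of those 38, namely ASNS, CHAC1, ATF3, AARS1, CEBPG, SLC3A2 and HERPUD1, which are 6 of 19 ATF4 targets, 0 of 10 ER chaperones and 1 of 4 degradation factors. Over all 27305 genes with a window the share was 4.46%. Of the 8 wider synthetases with a window, 6 held it. In the segments below, written 5′ to 3′ on the strand of the gene, capitals mark the element on either strand, and they lie at chr7:97872449-97872496 (minus strand) for ASNS, chr15:40953242-40953289 (plus) for CHAC1, chr1:212565196-212565243 (plus) for ATF3 and chr16:70289666-70289713 (minus) for AARS1.
ASNS: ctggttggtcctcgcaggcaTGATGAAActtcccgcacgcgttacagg
CHAC1: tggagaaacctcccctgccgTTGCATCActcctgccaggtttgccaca
ATF3: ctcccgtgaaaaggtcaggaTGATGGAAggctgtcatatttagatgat
AARS1: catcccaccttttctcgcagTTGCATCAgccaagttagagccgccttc

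ASNS and CHAC1 rose whereas ATF3 and AARS1 were not called and CEBPG fell, so genes with these letters included all 3 outcomes. Of 295 tested genes with the element outside the lists, 81 were called higher and 80 lower (23.2% and 23.4% over all genes tested). ATF5 and WARS1 did not hold it, but held the repeat GAAANNGAAA, a form of the interferon-stimulated response element, which was present in 4.38% of all genes with a window and in no other member. PKR's gene EIF2AK2 held it too. PHGDH, PSAT1, MTHFD2 and TRIB3 were also called higher and held neither the ATF4 element nor the repeat. Capitals mark that repeat in the following segments, shown for the 2 members that held it. The segments lie at chr19:49928801-49928850 (plus strand) for ATF5 and chr14:100375373-100375422 (minus strand) for WARS1. In ATF5 a pair of matches overlap and a further match lies after the start site.
ATF5: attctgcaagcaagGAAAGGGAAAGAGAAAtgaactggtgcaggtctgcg
WARS1: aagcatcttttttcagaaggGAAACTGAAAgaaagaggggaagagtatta

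Of 447 tested genes outside the lists with this repeat, 164 were called higher and 97 lower, beside 23.2% and 23.4% over all genes tested. These matches describe the letters of a window and do not show binding. Any part of interferon in the rise of ATF5 and WARS1 was not tested.

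The ER chaperones moved in 1 direction. All 10 were tested, 9 were called higher and none lower (23.2% and 23.4% over all genes tested), and the 3 siNONO libraries lay above the 3 siControl libraries for all 10 in CPM (23.9% over all genes tested). Their median log2 fold change was 0.47, with 0.45, 0.49 and 0.43 in Sets 1, 2 and 3, and it was 0.35 on log2(TPM + 1). The count of 9 held in each of the 15 alternative fits, among which leaving out either library of a Set amounts to leaving out the Set.

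The most abundant chaperones rose moderately. HSPA5 (GRCh37 chromosome 9, 127997132 to 128003661, minus strand), the ER HSP70 known as BiP that holds the sensors inactive, was at 999, 1061 and 979 CPM in siControl Sets 1, 2 and 3 and 1214, 1218 and 1226 CPM in siNONO. The siNONO libraries of HSPA5 differed little from each other and were above siControl (log2 fold change 0.27 ± 0.0299, SE, edgeR adjusted p = 1.11e-05). HSP90B1, the ER HSP90 known as GRP94, was at 1249, 1297 and 1142 CPM against 1676, 1713 and 1604 CPM and rose more (log2 fold change 0.44 ± 0.0277, SE, edgeR adjusted p = 7.50e-08). CALR, the lectin chaperone calreticulin, was at 866, 925 and 858 CPM against 1009, 1041 and 1056 CPM and had the smallest increase of the 9 (log2 fold change 0.23 ± 0.0302, SE, edgeR adjusted p = 4.61e-05). On log2(TPM + 1) the increases of HSPA5, HSP90B1 and CALR were smaller, at 0.18, 0.29 and 0.14, and were still called.

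Larger increases were seen among the folding enzymes and cofactors. PDIA4 (GRCh37 chromosome 7, 148700154 to 148725754, minus strand), a disulfide isomerase, was at 313, 329.8 and 321 CPM against 481, 483 and 494 CPM (log2 fold change 0.60 ± 0.0294, SE, edgeR adjusted p = 8.94e-09). CRELD2 (GRCh37 chromosome 22, 50311815 to 50321188, plus strand), an ER stress-induced secretory protein, was at 33.9, 33.9 and 35.5 CPM against 52.7, 55.5 and 63.6 CPM, the largest increase of the chaperone group (log2 fold change 0.73 ± 0.0497, SE, edgeR adjusted p = 1.44e-07). HYOU1, the nucleotide exchange factor GRP170 that works with BiP, was at 380.4, 385 and 412 CPM against 531, 544 and 566 CPM (log2 fold change 0.48 ± 0.0278, SE, edgeR adjusted p = 3.86e-08). All 3 showed no overlap between groups. The increases of PDIA4 and HYOU1 were similar in every Set. That of CRELD2 was 0.64, 0.71 and 0.84 on the log2 scale in Sets 1, 2 and 3. The BiP cochaperones DNAJB9, DNAJC3 and SDF2L1 rose to a like extent. DNAJB9, a J-domain protein that restrains IRE1, was at 25.8, 24.1 and 22.6 CPM against 37.3, 33.9 and 29.8 CPM (log2 fold change 0.48 ± 0.0531, SE, edgeR adjusted p = 1.06e-05). DNAJC3, known as p58IPK, was at 87.0, 80.8 and 76.7 CPM against 116, 113 and 107 CPM (log2 fold change 0.46 ± 0.0347, SE, edgeR adjusted p = 3.53e-07), and SDF2L1 was at 23.9, 24.6 and 28.7 CPM against 34.5, 34.8 and 37.7 CPM (log2 fold change 0.48 ± 0.0525, SE, edgeR adjusted p = 1.02e-05). MANF was the exception: this ER stress-induced neurotrophic factor was at 66.6, 66.8 and 67.8 CPM against 68.0, 70.2 and 69.0 CPM, so siNONO was just above siControl in all libraries, but it was not called (log2 fold change 0.04 ± 0.0375, SE, edgeR adjusted p = 0.392). Its value turned to -0.016 on log2(TPM + 1), where the median of all genes was -0.07.

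The promoters of this group are shown because the ER stress response element, bound by ATF6 and XBP1 with NF-Y, is rare among promoters. It was searched as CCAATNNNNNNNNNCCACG and, for its second form, as ATTGGNCCACG, on both strands of the same windows. The first form occurred in 25 of 27305 genes (0.0916%), among them HSPA5, HSP90B1, CALR, CRELD2 and XBP1, and the second in 19 genes (0.0696%), among them HYOU1, SDF2L1 and HERPUD1. A further match lies outside the printed segment in HSP90B1 and in HYOU1. No member held both forms, and in HERPUD1, which also held TGATGNAA, the matches did not overlap. None of the 19 ATF4 targets with a window held either form. Capitals mark the element on either strand of segments written 5′ to 3′ along the gene, at chr9:125241371-125241429 (minus strand) for HSPA5, chr12:103930301-103930359 (plus) for HSP90B1, chr19:12938364-12938422 (plus) for CALR, chr22:49918534-49918592 (plus) for CRELD2, chr22:28800583-28800641 (minus) for XBP1, chr11:119057254-119057304 (minus) for HYOU1, chr22:21642094-21642144 (plus) for SDF2L1 and chr16:56932005-56932055 (plus) for HERPUD1.
HSPA5: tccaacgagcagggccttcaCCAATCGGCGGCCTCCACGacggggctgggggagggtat
HSP90B1: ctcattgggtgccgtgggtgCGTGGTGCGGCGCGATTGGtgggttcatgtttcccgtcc
CALR: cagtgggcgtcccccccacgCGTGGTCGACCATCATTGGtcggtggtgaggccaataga
CRELD2: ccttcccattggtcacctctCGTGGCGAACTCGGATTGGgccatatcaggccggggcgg
XBP1: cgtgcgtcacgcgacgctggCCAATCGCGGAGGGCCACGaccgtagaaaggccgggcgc
HYOU1: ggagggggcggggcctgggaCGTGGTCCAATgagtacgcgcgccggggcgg
SDF2L1: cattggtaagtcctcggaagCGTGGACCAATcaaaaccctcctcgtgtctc
HERPUD1: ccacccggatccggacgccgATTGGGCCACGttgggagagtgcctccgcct

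Each of these 8 members was called higher. PDIA4, DNAJB9 and DNAJC3 also rose, with no exact match in the window, and MANF, which was not called, had none either. Of 4 wider ER folding genes with the first form, 3 were called higher, but SERP1, a small protein of the translocon, was called lower (log2 fold change -0.12 ± 0.0318, SE, edgeR adjusted p = 0.00850), a call lost without either library of Set 2 (adjusted p = 0.155 and 0.11). Genes with the elements outside the lists went both ways. Of 8 tested genes with the first form, 3 were called higher and 1 lower, and of 11 with the second, 3 were called higher and 3 lower. Over all genes tested, 23.2% were called higher and 23.4% lower.

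Other genes of ER folding changed in the same direction as the chaperones for the most part. Of 10 read as a wider list, 8 were called higher and 2 lower (23.2% and 23.4% over all genes tested), with a median log2 fold change of 0.38. DNAJB11, a further J-domain partner of BiP, was at 93.8, 99.6 and 87.7 CPM against 142, 137 and 138 CPM (log2 fold change 0.57 ± 0.0398, SE, edgeR adjusted p = 1.88e-07). PPIB, an ER prolyl isomerase, was at 305, 312 and 300.3 CPM against 424, 446 and 459.8 CPM (log2 fold change 0.54 ± 0.0325, SE, edgeR adjusted p = 5.64e-08).

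The factors of ER-associated degradation were called higher in 2 of 4 cases (over all genes tested, 23.2% were called higher and 23.4% lower). HERPUD1, a membrane scaffold of the degradation complex, was at 44.9, 47.7 and 49.4 CPM in siControl Sets 1, 2 and 3 and 60.4, 62.7 and 66.2 CPM in siNONO and rose without overlap (log2 fold change 0.42 ± 0.0405, SE, edgeR adjusted p = 3.44e-06). SYVN1, the ubiquitin ligase HRD1, was at 61.9, 59.8 and 71.4 CPM against 68.8, 68.3 and 75.8 CPM with overlapping groups. Its call (log2 fold change 0.14 ± 0.0392, SE, edgeR adjusted p = 0.00928) was lost without the Set as a block (adjusted p = 0.151), with DESeq2 (0.0828), on log2(TPM + 1) (0.420), without either library of Set 2 (0.0674 and 0.0921) and without the siNONO library of Set 1 (0.0606). SEL1L, the partner of HRD1, was at 95.5, 94.7 and 91.6 CPM against 95.2, 89.1 and 85.3 CPM and was not called (log2 fold change -0.06 ± 0.0362, SE, edgeR adjusted p = 0.171). EDEM1, a mannosidase-like factor that hands glycoproteins over for degradation, was at 53.6, 47.1 and 47.2 CPM against 49.8, 48.7 and 47.7 CPM and was not called either (log2 fold change -0.02 ± 0.0461, SE, edgeR adjusted p = 0.815). In the wider degradation list, 9 of 10 genes were tested, 5 were called higher and 3 lower, with a median log2 fold change of 0.25. EDEM2 had a log2 fold change of 0.44 (edgeR adjusted p = 2.05e-05) and VCP, the ATPase that extracts substrates from the membrane, one of -0.38 (edgeR adjusted p = 4.02e-07).

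Set side by side, the ER chaperones were called higher in 9 of 10 cases and the ATF4 targets in 10 of 21, and called lower in 0 and 4. Over all genes tested, 23.2% were called higher and 23.4% lower. The median log2 fold changes in Sets 1, 2 and 3 were 0.45, 0.49 and 0.43 for the chaperones against 0.09, 0.09 and 0.23 for the ATF4 targets. The difference between the groups was not tested, since genes are not replicates and the members were chosen with earlier results known. Summed over the 10 chaperones, the level was 2529 ± 51.1 TPM in siControl and 2997 ± 27.9 TPM in siNONO (SD, n = 3), a ratio of 1.19 with no overlap between libraries. Summed over the 22 ATF4 targets, it was 1693, 1791 and 1809 TPM in siControl and 1821, 1805 and 1957 TPM in siNONO, a ratio of 1.05 of the means with overlapping libraries. Both sums lack TMM scaling, and on log2(TPM + 1) the median log2 fold change of all genes was -0.07. The chaperone sum rests mostly on HSP90B1, CALR and HSPA5, at 807, 747 and 384 TPM in siControl.

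Levels per length spanned a wide range. HSP90B1, at 807 ± 44.2 TPM in siControl and 986 ± 24.0 TPM in siNONO (SD, n = 3), and CALR, at 747 ± 20.6 and 822 ± 17.4 TPM, were the most abundant members, followed by ATF4 at 439 ± 26.6 and 497 ± 22.1 TPM and HSPA5 at 384 ± 10.3 and 434 ± 7.57 TPM. ATF5, with the largest fold change, was among the lowest at 9.10 ± 0.424 and 15.6 ± 2.18 TPM. DDIT3 stood at 20.0 ± 2.69 and 20.0 ± 2.28 TPM. The lowest tested member was ERN1, at 6.75 ± 0.390 and 6.43 ± 0.0361 TPM.

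**Figure D4:**
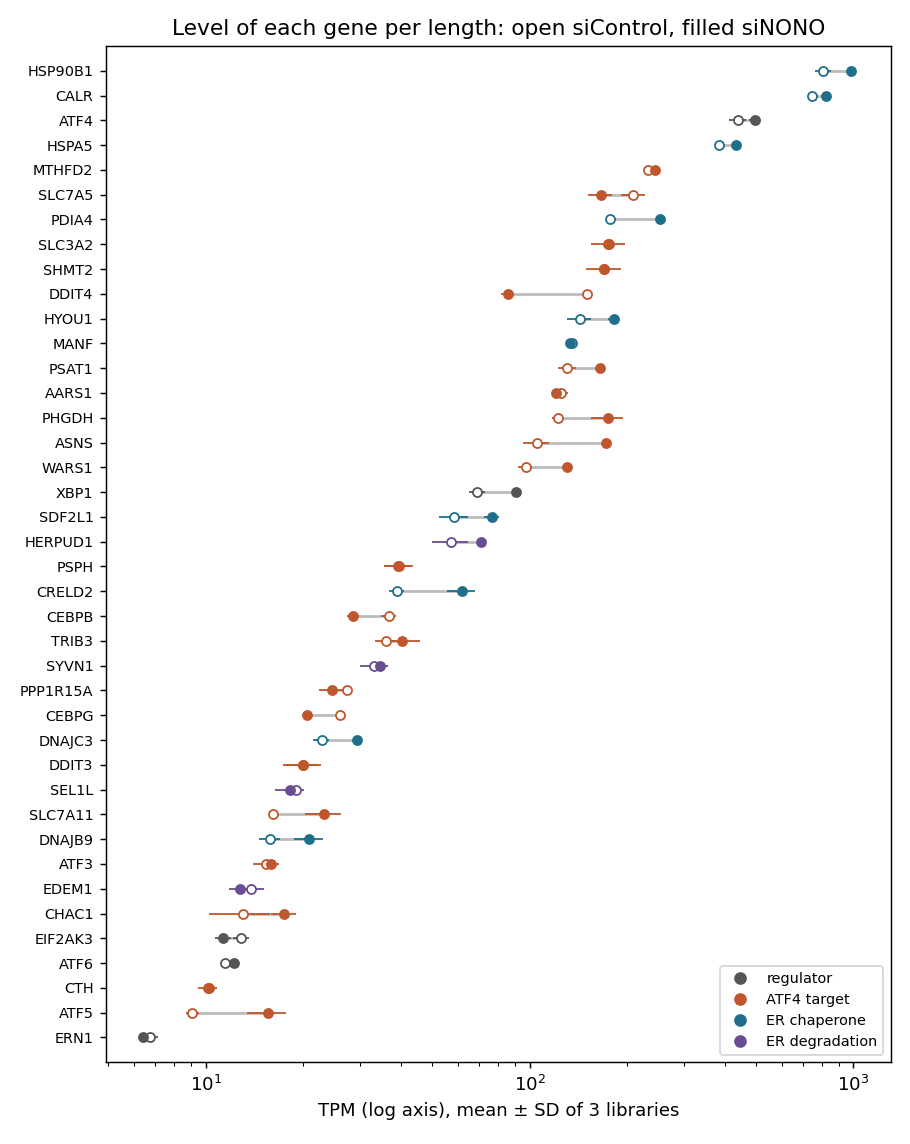
Mean TPM ± SD of 3 libraries on a log axis for the 40 tested members, open symbols for siControl and filled for siNONO, ordered by the siControl level. HSP90B1, CALR, ATF4 and HSPA5 are at the top and ERN1 at the bottom, and DDIT4, ASNS, PHGDH, PDIA4, CRELD2 and ATF5 show wide gaps between the groups.

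Set 2 had smaller changes in several ATF4-related genes, which were chosen after their values were seen. The log2 fold change in Set 2 was 0.13 for ATF4, 0.19 for CHAC1, 0.00 for TRIB3, 0.37 for PHGDH, 0.29 for PSAT1 and 0.72 for ASNS, below both other Sets for each. In siControl, Set 2 held the highest CPM of its group for all 6 of these genes, and in siNONO it did so for ASNS only. The part of the Set 2 siControl library in the smaller changes was not tested.

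The estimated transcript length of a gene, which moves when the mix of its isoforms moves, was compared as a separate readout with limma on log2 length. It varied between libraries for 37 members, and 0 were called, with 2 at an unadjusted p under 0.05. Over all genes whose length varied, 0% of 14129 were called.

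Some counts rest on shared reads. In 19 members the estimated counts were not whole in at least 1 library (more than 0.005 from a whole number), among them ATF4, ATF5, DDIT3, ASNS, MTHFD2, CEBPB, SLC7A5 and SYVN1 in all 6 libraries, so part of their reads had been divided among genes. Exons of another gene on the same strand overlap ATF5, DDIT3, ASNS, HSP90B1 and SYVN1, whose levels are therefore less certain. The library kit keeps the strand, but the strand setting of the counting is not given in the sources used here, so reads of opposite-strand neighbours, such as MARS1 beside DDIT3, NUP62 beside ATF5 and ALG12 beside CRELD2, may also have entered.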

How the data were processed

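The 6 libraries, 3 of siControl and 3 of siNONO HCT116 cells, were grouped by their labels. The authors trimmed the reads, aligned them with STAR to a GENCODE annotation on GRCh37 and ran RSEM (version 1.3.1). The deposited estimated counts carry no normalization and need not be whole, the deposited TPM values take account of transcript length and depth, and the deposited length is the abundance-weighted transcript length of each gene. Harvest time is not given in the sources used here.

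The members and gene lists were chosen with earlier results of these data known. Symbols were matched to 62211 of 62492 Ensembl IDs, and all 41 members were found. Counts were rounded to whole numbers, filtered with filterByExpr to 17000 genes, scaled by TMM and tested with edgeR (version 4.0.16, in its edgeR 3 form, R 4.3.3) with the Set in the model, and p-values were adjusted by Benjamini-Hochberg over those 17000 genes, after a check on simulated counts. Each SE of a log2 fold change was derived from the test, as the absolute log2 fold change over the square root of the quasi-likelihood F. The biological coefficient of variation was 3.51%. Total counts of 21765393 to 32659002 set the precision, and no interval was taken from counts alone.

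The Set numbers come from the labels. Deviations from the group means correlated at 0.429, 0.238 and 0.513 between libraries of the same Set over 11305 genes. Between Sets 1 and 2 they correlated at 0.181 and 0.128, and between Set 3 and the others at -0.43 to -0.242. Each library thus went most with that of its own Set, though for Set 2 by a small margin. No pair of replicates agreed within sampling noise. Transcript length was tested with limma (version 3.58.1) on log2 length. Motifs were searched in RefSeq promoter windows of GRCh38.p14. Gene positions come from a GENCODE annotation lifted to GRCh37.

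All 41 members could be named, together with NONO and, in each wider group, the called genes with the 3 highest and the 3 lowest log2 fold changes. EIF2AK4, which was not called, was named outside this rule, after its values were seen. Alternatives were a fit with no block, scaling by library size alone or by DESeq2's size factors, no filter or a stricter one on low counts, the quasi-likelihood form of edgeR 4, DESeq2 (version 1.42.0), limma on log2(TPM + 1) and log2(TPM + 0.1), and each library left out in turn. With the Set in the model, a library left without its partner carries no information on the siRNA contrast. Leaving out either library of a Set therefore amounts to leaving out the Set.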

Additional observations from a re-analysis of the deposited data

How the results depend on the processing

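The number of genes called was 7924 in the fit reported, 5206 with DESeq2, 5257 with limma on log2(TPM + 1) and 5250 on log2(TPM + 0.1). On log2(TPM + 1), 1643 of those called were higher and 3614 lower, against 3939 and 3985 in the fit reported, and the median log2 fold change of all genes was -0.07. The median of the ATF4 targets was 0.010 with both TPM fits, and that of the ER chaperones was 0.35 and 0.36, while SHMT2 turned to -0.0037 in both. Without the replicate block, 6164 genes and 26 members were called, and of the members EIF2AK3, SHMT2 and SYVN1 lost their call and no other call of a member changed. Leaving out each library in turn gave 6497 to 7653 genes called, 27 to 29 members, 9 to 11 ATF4 targets higher and 4 to 5 lower, 9 ER chaperones higher, a median of 0.09 to 0.17 for the ATF4 targets and 0.45 to 0.48 for the ER chaperones, and -2.42 to -2.36 for NONO. Refits without the siControl or the siNONO library of the same Set are not separate checks, since both leave out that Set. Of 600 refits of single members, which count each left-out Set by way of both its libraries, 543 kept the direction and the side of the threshold, 29 lost a call, 11 gained one and 17 turned in direction, 15 of them in members that were called in neither fit, and 30 of 40 members kept their side of the threshold in every fit. On log2(TPM + 1) and log2(TPM + 0.1), ERN1 turned to -0.059 and -0.067, DDIT3 to -0.0031 and -0.0032, CTH to -0.014 and -0.015, AARS1 to -0.046 in both and MANF to -0.016 in both. The medians of all genes in these fits, -0.07 and -0.09, lay below each of those values. DDIT3 also turned without siControl or siNONO of Set 3 (-0.047 and -0.050, over a range of -0.050 to 0.16 with each library left out), and EDEM1 turned with no filter (0.0028) and without siControl or siNONO of Set 1 (0.037 and 0.035, over a range of -0.045 to 0.037). With no filter on low counts, EIF2AK3 was not called and PSPH and SLC3A2 were. Of 33 genes of the wider lists, 21 kept their call in every fit, and NUPR1 and SESN2 lost it on TPM (adjusted p = 0.0843 and 0.144 on log2(TPM + 1)). The 10 members whose call changed in any fit had log2 fold changes from -0.14 to 0.26 in the fit reported.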

Other observations

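The machinery around the ER sensors was read as a pair of further lists. Of 5 regulators of the unfolded protein response beside the members, 1 was called higher and 2 lower (23.2% and 23.4% over all genes tested). MBTPS2, the site-2 protease that completes the release of ATF6, was at 44.9, 45.4 and 44.2 CPM in siControl Sets 1, 2 and 3 and 34.3, 33.5 and 33.4 CPM in siNONO, with no overlap between groups, and fell (log2 fold change -0.41 ± 0.0461, SE, edgeR adjusted p = 1.19e-05). CREB3L2, a transcription factor of the ATF6 type that is cut in the Golgi, was at 111, 115 and 120.3 CPM against 77.0, 80.4 and 78.9 CPM and fell as well (log2 fold change -0.55 ± 0.0354, SE, edgeR adjusted p = 8.65e-08).

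Of 5 genes of the ER translocon and of export from the ER, 3 were called higher and 1 lower (23.2% and 23.4% over all genes tested). SEC61A1, the channel subunit, was at 378, 386 and 399.9 CPM against 511, 508 and 551 CPM and rose (log2 fold change 0.43 ± 0.0286, SE, edgeR adjusted p = 1.16e-07), and SEC61B, a small subunit of the same channel, rose with it (log2 fold change 0.40 ± 0.0399, SE, edgeR adjusted p = 4.16e-06). SSR1, a subunit of the translocon-associated protein complex, was at 246, 246 and 229 CPM against 176, 172 and 164 CPM and fell (log2 fold change -0.49 ± 0.0299, SE, edgeR adjusted p = 5.55e-08).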
